A study of Mus musculus with 15 samples.

Results

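Fatty acid oxidation genes of brown adipose tissue are described here: 38 genes for the enzymes, carriers, transporters and assembly factors with which mitochondria and peroxisomes break down fatty acids. The members were chosen by name, as the rows of the expression table whose gene symbol equals a listed member, and all 38 were found among the 24030 symbols of the table. Each of the 38 also passed the filter on low counts, which left 15083 genes for testing. By known location 18 members are mitochondrial and 15 peroxisomal, and 5 act for both: the 4 acyl-CoA synthetases and carnitine acetyltransferase. Eci2 and Scp2 also have forms in both compartments but are counted here as peroxisomal.

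The study sequenced bulk RNA from brown adipose tissue of mice with a brown-fat-specific deletion of DJ-1, a redox-sensitive protein encoded by Park7, and of flox mice without the deletion. The 15 libraries form 4 groups: DJ-1 knockout (KO) mice at 29 °C (n = 3), flox (WT) mice at 29 °C (n = 4), KO mice at room temperature (n = 4) and WT mice at room temperature (n = 4). Every mouse was kept for 8 weeks at its temperature, and the series title calls the mice humanized. The Cre driver behind the deletion, the sex and the age of the mice are not given in the sources used here. Nor do the labels say whether replicates came from different animals, so that p-values reflect the spread among samples, which may be technical. For a mouse, 29 °C is close to thermoneutrality and room temperature is a mild cold load.

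Libraries held 23977448 to 38800967 estimated counts. Park7 had 35.2, 25.4 and 34.5 CPM (counts relative to the scaled library total) in KO at 29 °C and 128, 126, 116 and 104 CPM in WT at 29 °C. At room temperature it had 26.7, 34.1, 25.0 and 26.9 CPM in KO and 111, 108, 112 and 109 CPM in WT. No KO library reached the lowest WT library. The tissue label was met by its markers: Ucp1, the heat-producing uncoupling protein, averaged 7233 CPM in KO and 1019 CPM in WT at 29 °C, and 7001 CPM in KO and 8602 CPM in WT at room temperature, and the liver markers Alb, Apoa1 and Serpina1a stayed under 1 CPM in every group mean. Skeletal muscle markers, 12 genes, summed to 542 CPM in KO at 29 °C replicate 2, 1661 CPM in KO at 29 °C replicate 3 and 1429 CPM in WT at 29 °C replicate 2, and to at most 29.6 CPM in the other 12 libraries. Mitochondrially encoded transcripts took 25.8% to 26.9% of counts in KO at 29 °C, 30.2% to 41.6% in WT at 29 °C, and 22.7% to 27.4% at room temperature. In bulk tissue, fewer cells of a type and less RNA per cell cannot be told apart.

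Long-chain fatty acids are first activated to acyl-CoA esters, then carried into mitochondria as carnitine esters and shortened by repeated rounds of beta-oxidation, whose electrons pass to the respiratory chain. Peroxisomes run a parallel pathway for very long and branched chains, which enter through ABC transporters, and hand shortened products on as carnitine esters. In brown fat this oxidation fuels heat production, and cold is known to raise its capacity.

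The comparison of KO with WT at 29 °C asked what loss of DJ-1 does to the pathway in warm-housed brown fat. Most members were higher in KO: 31 of 38 rose and 1 fell, with a median log2 fold change of 0.68, where 24.7% of all genes tested rose, 20.0% fell and the median was 0.04. The carnitine carrier Slc25a20, the trifunctional enzyme subunit Hadha and the quinone reductase Etfdh were each more than 2-fold higher. The single fall was in Etfb, a subunit of the electron transfer flavoprotein. Of the 38, 28 had every KO library above every WT library, 1 had every KO library below, and 9 overlapped, where 23.5% of all genes tested lay wholly above and 19.6% wholly below. Calls rest on an adjusted p below 0.05 in edgeR's quasi-likelihood test. Of the 31 rises 23 exceeded 1.5-fold, as did 2186 of the 3728 rises over all genes tested. Without the 3 libraries with muscle transcripts 1 KO library at 29 °C is left, whose spread is taken from the other groups. Fewer members were called higher in that fit, and so were fewer of all genes tested.

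**Figure D1:**
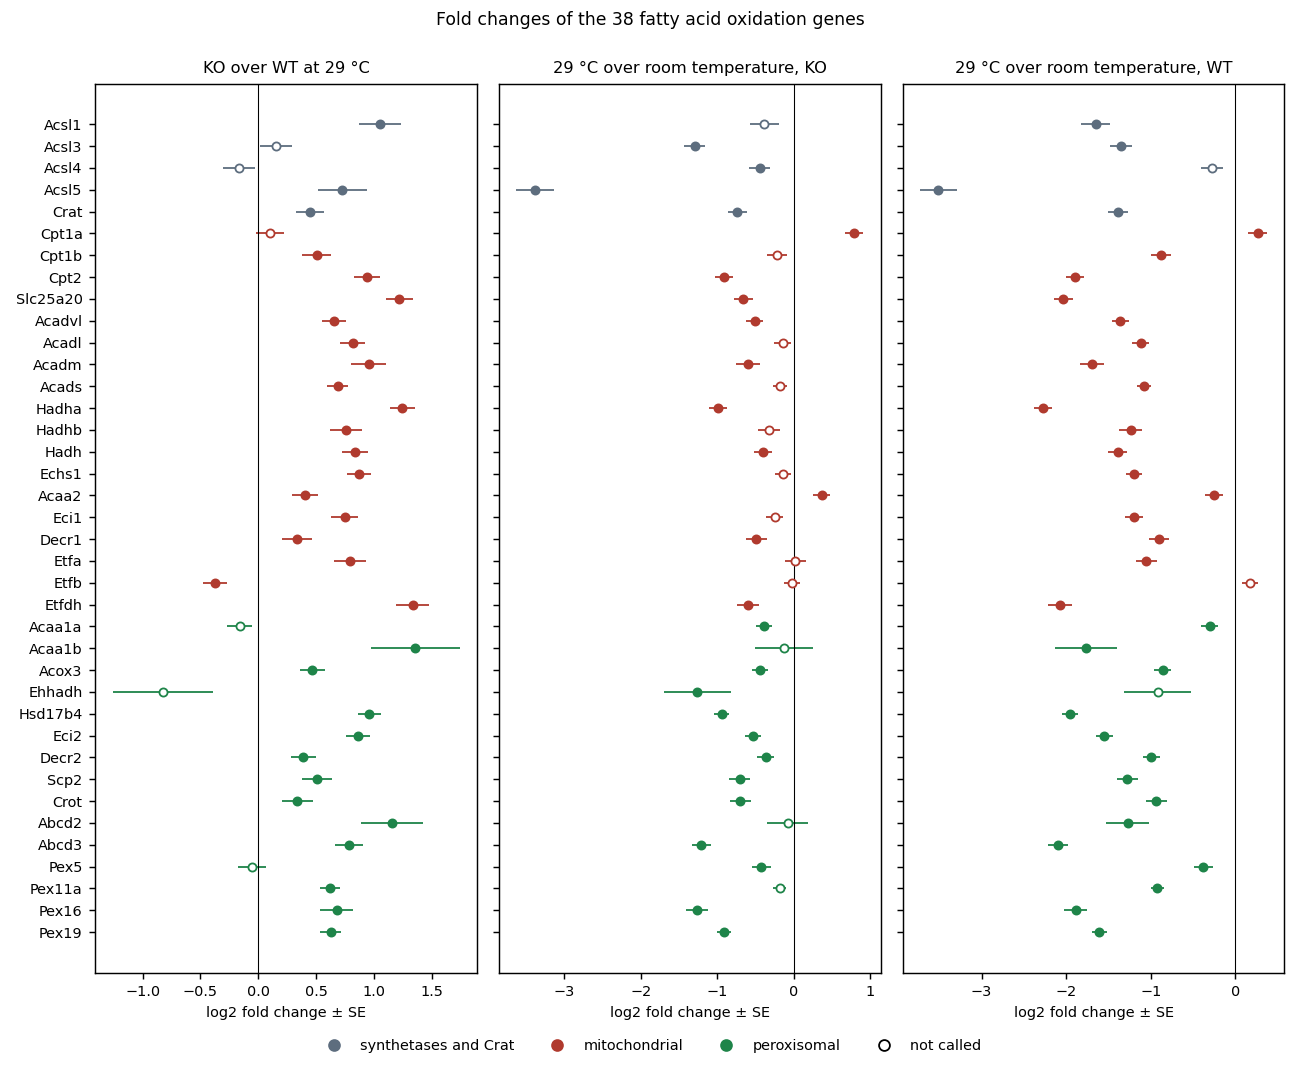
Log2 fold change ± SE (x axis) of the 38 members (rows, coloured by compartment) for KO over WT at 29 °C, for 29 °C over room temperature in KO, and for the same housing comparison in WT; filled points passed an adjusted p of 0.05. Most points lie right of 0 in the first panel, with medians of 0.68, -0.45 and -1.25 in the 3 panels.

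The acyl-CoA synthetases, which activate long-chain fatty acids, had 2 of 4 members higher in KO at 29 °C. Acsl1, the form that feeds oxidation in fat cells, had 1304, 1968 and 1555 CPM in KO and 597, 744, 856 and 909 CPM in WT at 29 °C, and 2631, 1641, 2412 and 1728 CPM in KO and 2184, 2716, 2555 and 2304 CPM in WT at room temperature. All KO libraries at 29 °C lay above all WT ones, with a log2 fold change of 1.05 ± 0.18 (adjusted p = 0.000261). It measured 0.65 (adjusted p = 0.0901) without the libraries with muscle transcripts. Acsl5, another long-chain form, had 112, 98.0 and 95.3 CPM in KO and 74.6, 73.8, 43.4 and 54.0 CPM in WT at 29 °C, against 1180.3, 1439.6, 757 and 874 CPM in KO and 805, 643, 606 and 749 CPM in WT at room temperature. No other member fell as far with warm housing: the log2 fold change was -3.38 in KO and -3.51 in WT, and 9.58% and 8.77% of the room temperature level remained. Its KO level at 29 °C was above WT in every library (log2 fold change 0.73 ± 0.21, adjusted p = 0.0119), and the adjusted p was 0.0511 without KO at 29 °C replicate 1 and 0.0602 without the libraries with muscle transcripts. Acsl3, which is linked to lipid droplets, had 17.5, 14.8 and 19.9 CPM in KO and 15.5, 18.0, 14.4 and 14.5 CPM in WT at 29 °C, and 45.2, 49.8, 33.6 and 41.9 CPM in KO and 38.5, 45.3, 38.6 and 36.9 CPM in WT at room temperature. It fell with warm housing in both genotypes, with log2 fold changes of -1.29 ± 0.14 in KO and -1.35 ± 0.13 in WT. The genotypes overlapped at each temperature. Acsl3 shares 244 exon bases with Utp14b on the same strand and had fractional counts, a mark of shared reads, in 15 of 15 libraries. Acsl4, which prefers arachidonic acid, was low in all groups (means from 20.8 to 28.4 CPM) and was not called between genotypes.

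The carnitine shuttle had 3 of 4 members higher in KO at 29 °C. Slc25a20, the translocase that moves acylcarnitines across the inner membrane, had 432, 483 and 430.1 CPM in KO and 177, 188, 188 and 217 CPM in WT at 29 °C. At room temperature it had 848, 662, 756 and 570.4 CPM in KO and 732, 813, 826 and 787 CPM in WT. The groups parted widely at 29 °C and overlapped at room temperature, with log2 fold changes of 1.22 ± 0.12 (adjusted p = 1.64e-06) and -0.16 ± 0.11 (adjusted p = 0.64). Cpt2, which re-forms acyl-CoA inside the matrix, had 267, 316 and 249.6 CPM in KO and 159, 149, 146 and 124 CPM in WT at 29 °C, and 569, 536, 523 and 459.8 CPM in KO and 499.8, 609.9, 551 and 496 CPM in WT at room temperature. Both genotypes fell with warm housing, and KO stayed above WT in every library (log2 fold change 0.94 ± 0.11, adjusted p = 9.33e-06).

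The entry enzyme carnitine palmitoyltransferase 1 comes in a muscle form, Cpt1b, and a liver form, Cpt1a. Cpt1b had 612, 773 and 683 CPM in KO and 503, 539, 474 and 423 CPM in WT at 29 °C, and 932, 789.8, 858 and 635 CPM in KO and 833, 969, 909.8 and 862 CPM in WT at room temperature. KO was higher at 29 °C in every library (log2 fold change 0.51 ± 0.13, adjusted p = 0.00391), but the value was 0.32 (adjusted p = 0.218) without the libraries with muscle transcripts, of which 2 were KO. The reads of Cpt1b are also shared with the annotated readthrough gene Gm44502, which overlaps 2744 of its exon bases on the same strand. Cpt1a was higher, not lower, with warm housing, as in KO was Acaa2, described further on. It had 20.3, 17.2 and 18.4 CPM in KO and 17.1, 19.2, 16.1 and 17.0 CPM in WT at 29 °C, and 10.3, 11.3, 12.4 and 9.22 CPM in KO and 11.8, 15.1, 15.6 and 15.3 CPM in WT at room temperature. Every KO library was higher at 29 °C than at room temperature (log2 fold change 0.79 ± 0.12, adjusted p = 8.5e-05). WT was also higher at 29 °C in every library (0.26 ± 0.11, adjusted p = 0.0466), but this call was lost in most other settings, for example without WT at room temperature replicate 1 (adjusted p = 0.168). Per kilobase of exon, Cpt1b averaged 204 CPM in KO and 144 CPM in WT at 29 °C, and Cpt1a 2.44 and 2.27 CPM in the same groups, so that the muscle form was far more abundant.

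The sequences before the start sites of Slc25a20 and Cpt1a are shown because both genes serve the same shuttle and moved in opposite directions with warm housing. They are RefSeq promoter windows on GRCm38, trimmed to the stretch free of annotated exons and read 5′ to 3′ on the strand of the gene; capitals mark the GC box GGGCGG or its reverse complement CCGCCC.
Slc25a20 at chr9:108661886-108662087 (plus strand): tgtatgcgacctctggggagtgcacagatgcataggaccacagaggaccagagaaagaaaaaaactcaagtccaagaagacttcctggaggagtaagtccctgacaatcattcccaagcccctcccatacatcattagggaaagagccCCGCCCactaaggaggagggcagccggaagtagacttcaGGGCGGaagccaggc
Cpt1a at chr19:3323051-3323284 (plus strand): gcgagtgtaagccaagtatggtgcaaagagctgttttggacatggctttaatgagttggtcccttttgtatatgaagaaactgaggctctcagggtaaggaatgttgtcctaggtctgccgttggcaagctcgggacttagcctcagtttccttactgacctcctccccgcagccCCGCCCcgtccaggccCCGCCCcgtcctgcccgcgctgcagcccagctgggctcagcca
Each stretch holds 2 GC boxes, 1 on each strand in Slc25a20 and both on the reverse strand in Cpt1a. The Cpt1a stretch precedes the RefSeq start site but lies inside the gene as annotated by GENCODE, which starts at 3322334. RefSeq windows of the 250 bases before a start site were found for 31 of the 38 members. On either strand, GGGCGG was in 71.0% of these members, in 60.8% of tested genes with a window and in 35.4% of all genes with a window. The CCAAT box was in 48.4% of members, 39.9% of tested genes and 37.5% of all genes.

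The mitochondrial beta-oxidation enzymes rose together: 11 of 11 were higher in KO at 29 °C, with a median log2 fold change of 0.76. The spiral starts with acyl-CoA dehydrogenases of falling chain length. Acadvl, for very long chains, had 1650.0, 1939 and 1435 CPM in KO and 1156, 1066, 1039 and 986 CPM in WT at 29 °C, and 2572, 2285, 2441 and 2270.4 CPM in KO and 2597, 2747, 2770.5 and 2770.0 CPM in WT at room temperature. The KO libraries lay above WT at 29 °C (log2 fold change 0.66 ± 0.10, adjusted p = 0.000115) and below WT at room temperature, where the difference was not called (-0.19 ± 0.10, adjusted p = 0.499). Its exons share 1151 bases with Dvl2 on the opposite strand. Acadm, for medium chains, had 1464, 1756 and 1265 CPM in KO and 662, 635, 926 and 860.1 CPM in WT at 29 °C. In the room temperature libraries it had 2702, 2025, 2337 and 1983 CPM in KO and 2509.5, 2570.4, 2642 and 2249.7 CPM in WT. It was among the larger rises in KO at 29 °C (log2 fold change 0.96 ± 0.15, adjusted p = 0.000111), with no overlap between the groups. The long-chain enzyme Acadl (0.82) and the short-chain enzyme Acads (0.69) rose too, with adjusted p of 2.65e-05 and 1.91e-05.

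The middle and last steps on long chains are run by the trifunctional protein, built from the alpha subunit Hadha and the beta subunit Hadhb. Hadha had 1048, 1267 and 893 CPM in KO and 463, 452, 462 and 428 CPM in WT at 29 °C, and 2313, 2129, 2049 and 2012 CPM in KO and 2103, 2363, 2118 and 2122 CPM in WT at room temperature. The lowest KO library at 29 °C was far above the highest WT library, and the room temperature groups overlapped. The log2 fold change at 29 °C was 1.24 ± 0.11 (adjusted p = 7.89e-07), the smallest p among the members in this comparison. Hadhb had 2632, 2792 and 1909 CPM in KO and 1302, 1273, 1780.2 and 1416 CPM in WT at 29 °C, and 3269, 3074, 3123 and 2767 CPM in KO and 3232, 3825, 3420.3 and 3119 CPM in WT at room temperature. KO was above WT at 29 °C in every library as well (log2 fold change 0.76 ± 0.14, adjusted p = 0.000434). With warm housing Hadha fell in both genotypes, with log2 fold changes of -0.99 in KO and -2.27 in WT, whereas Hadhb measured -0.32 in KO, which was not called, and fell in WT (-1.24).

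Both genes lie head to head on chromosome 5 (GRCm38), Hadha at 30118304 to 30155162 on the minus strand and Hadhb at 30155248 to 30184593 on the plus strand. Their RefSeq start sites are 272 bases apart. The exon-free stretch between them is shown because the pair is read from it in opposite directions, and the window before Acadm because it alone among the members holds the nuclear receptor element AAGGTCA; capitals mark GGGCGG in the first and TGACCTT, the reverse complement of that element, in the second.
Hadhb at chr5:30155163-30155247 (plus strand): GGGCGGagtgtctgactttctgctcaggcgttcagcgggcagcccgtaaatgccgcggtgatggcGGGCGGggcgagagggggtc
Acadm at chr3:153944644-153944893 (minus strand): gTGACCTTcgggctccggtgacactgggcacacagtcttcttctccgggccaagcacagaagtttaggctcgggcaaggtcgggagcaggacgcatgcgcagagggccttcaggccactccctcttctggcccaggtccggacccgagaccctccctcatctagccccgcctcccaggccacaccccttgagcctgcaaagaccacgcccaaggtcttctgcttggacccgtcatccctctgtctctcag
AAGGTCA was in 3.23% of member windows (1 of 31), 3.74% of tested genes and 4.7% of all genes. The longer strings TCAAGGTCA, which contains it, for estrogen-related receptors and AGGTCA repeated after any 1 base for PPAR dimers were in no member window and in 0.312% and 0.0535% of tested genes. The NRF1 string, GCGCA and GCGC with any base between, was in 3 members, Etfb, Etfdh and Abcd3, or 9.68%, against 8.49% of tested genes. The cyclic AMP element TGACGTCA was in no member window and in 2.9% of tested genes.

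Of the other mitochondrial enzymes, Hadh, a dehydrogenase for shorter chains, and Echs1, the short-chain hydratase, rose by log2 fold changes of 0.84 and 0.87 in KO at 29 °C. The isomerase Eci1, needed for unsaturated chains, rose by 0.75. The thiolase Acaa2, which cuts off acetyl-CoA, had 2253, 2422 and 1747 CPM in KO and 1704, 1704, 1603 and 1464 CPM in WT at 29 °C, and 1729, 1541, 1734 and 1662 CPM in KO and 1815, 2049.8, 1974 and 1866 CPM in WT at room temperature. Its KO libraries were above WT at 29 °C by 0.40 ± 0.11 (adjusted p = 0.00737) and above the KO libraries of room temperature by 0.36 ± 0.11 (adjusted p = 0.0138). Without KO at 29 °C replicate 2 these adjusted p-values were 0.0531 and 0.0855. Decr1, the reductase for double bonds, overlapped between KO and WT at 29 °C although it was called (0.34 ± 0.13, adjusted p = 0.0457), and lost the call without KO at 29 °C replicate 2 (adjusted p = 0.274) and without the libraries with muscle transcripts (adjusted p = 0.168).

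Electrons from the dehydrogenases pass through the electron transfer flavoprotein, a dimer of Etfa and Etfb, to the quinone reductase Etfdh. Etfdh had 546, 648 and 444 CPM in KO and 178, 211, 241 and 235 CPM in WT at 29 °C, and 964, 776, 892 and 676 CPM in KO and 879.6, 985, 958 and 826 CPM in WT at room temperature. No WT library came near the lowest KO library at 29 °C (log2 fold change 1.34 ± 0.14, adjusted p = 3.84e-06). The dimer partners diverged: Etfa was higher in KO at 29 °C (0.79 ± 0.14, adjusted p = 0.000234), while Etfb had 1106, 1159 and 985 CPM in KO and 1385, 1274, 1529 and 1415 CPM in WT. Every KO library of Etfb was below every WT library, a log2 fold change of -0.37 ± 0.10 (adjusted p = 0.00828) that is smaller than 1.5-fold. At room temperature Etfb had 1216, 1028, 1185 and 979 CPM in KO and 1169, 1209.7, 1293 and 1283 CPM in WT and the genotypes overlapped. Unlike Etfa, which fell by 1.05 with warm housing in WT, Etfb measured 0.18 ± 0.10 there and was not called (adjusted p = 0.106). In 2 other edgeR fits Etfb was called higher there. It measured 0.24 without mitochondrially encoded genes (adjusted p = 0.0292) and 0.25 with the level of the muscle markers as a covariate (adjusted p = 0.0462). The predicted gene Gm45233 shares 617 exon bases with Etfb on the same strand, but Etfb had fractional counts, a mark of shared reads, in 0 of 15 libraries.

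**Figure D2:**
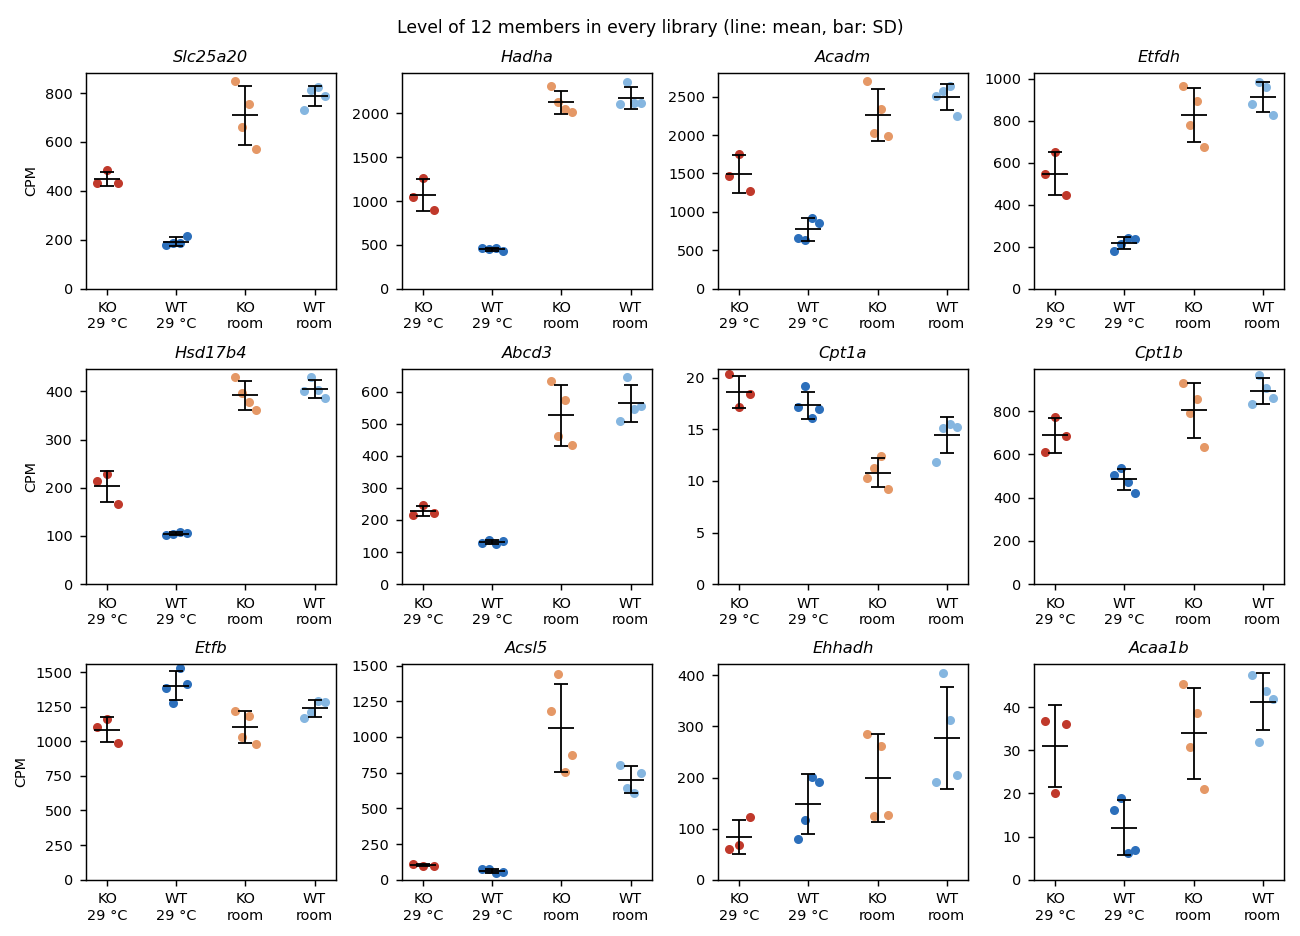
CPM in every library (points, y axis from 0) of 12 members in KO at 29 °C, WT at 29 °C, KO at room temperature and WT at room temperature; lines are means and bars SD. Slc25a20, Hadha and Etfdh separate KO from WT at 29 °C and overlap at room temperature, while Cpt1a and Etfb follow other patterns.

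Peroxisomal beta-oxidation enzymes were higher in KO at 29 °C in 6 of 8 members, with a median log2 fold change of 0.49. Hsd17b4, the D-bifunctional enzyme that runs the middle steps, had 214, 229.5 and 167 CPM in KO and 102, 103, 108 and 106 CPM in WT at 29 °C, and 429.7, 398, 377 and 362 CPM in KO and 400.4, 431, 402 and 386 CPM in WT at room temperature. It parted the genotypes at 29 °C (log2 fold change 0.96 ± 0.10, adjusted p = 2.83e-06) and not at room temperature (-0.05 ± 0.09, adjusted p = 0.896). The other bifunctional enzyme, Ehhadh, had 60.0, 67.9 and 122 CPM in KO and 80.4, 117, 202 and 191 CPM in WT at 29 °C, and 286, 125, 262 and 126 CPM in KO and 192, 404, 313 and 204 CPM in WT at room temperature. Its libraries scattered widely within groups, with a coefficient of variation of 40.5% in KO at 29 °C, 43.2% in KO at room temperature and 36.0% in WT at room temperature, the largest of the 38 members in each of these groups. The lower KO mean at 29 °C was not called (-0.82 ± 0.43, adjusted p = 0.144).

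The peroxisomal thiolases Acaa1a and Acaa1b differed from each other. Acaa1a had 109, 111 and 85.9 CPM in KO and 124, 111, 124 and 97.3 CPM in WT at 29 °C, and 141, 137, 129.8 and 126 CPM in KO and 142, 132, 142 and 148 CPM in WT at room temperature. Acaa1b had 36.8, 20.0 and 36.0 CPM in KO and 16.1, 18.9, 6.26 and 6.90 CPM in WT at 29 °C, and 45.4, 30.7, 38.5 and 20.9 CPM in KO and 47.3, 31.9, 43.7 and 42.0 CPM in WT at room temperature. Acaa1a overlapped between genotypes (-0.16 ± 0.10, adjusted p = 0.226), whereas Acaa1b was higher in every KO library at 29 °C (1.36 ± 0.38, adjusted p = 0.0119), although KO replicate 2 lay close to the highest WT library. Their longest protein-coding transcripts match at 96.0% of 1450 aligned bases, and both had fractional counts, a mark of shared reads, in 15 of 15 libraries, so the split between them is uncertain. Acox3, an oxidase for branched chains, rose by 0.47, the isomerase Eci2 by 0.86 and the reductase Decr2 by 0.39 (adjusted p = 0.00185, 9.29e-06 and 0.00798). Scp2, which encodes a thiolase and a sterol carrier, rose by 0.51 (adjusted p = 0.00513) with overlapping groups. Acox3, Decr2 and Scp2 lost their calls without the libraries with muscle transcripts (adjusted p = 0.0584, 0.0653 and 0.0774).

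The carnitine acyltransferases, which export shortened chains, both rose slightly. Crat, for acetyl groups, had 461, 585 and 444 CPM in KO and 361, 356, 398 and 341 CPM in WT at 29 °C, and 991, 799.8, 834 and 695 CPM in KO and 931, 1001, 985 and 890.2 CPM in WT at room temperature. The KO rise at 29 °C (0.45 ± 0.12, adjusted p = 0.00623) was without overlap, but the adjusted p was 0.0544 without KO at 29 °C replicate 2. Crot, for medium chains in the peroxisome, overlapped (0.34 ± 0.13, adjusted p = 0.0468), and without the same library the adjusted p was 0.204. Without the libraries with muscle transcripts Crat measured 0.26 and Crot 0.29, and neither was called (adjusted p = 0.283 and 0.233).

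The ABC transporters that bring very long chains into peroxisomes both rose. Abcd2 had 74.7, 83.6 and 60.3 CPM in KO and 24.8, 37.3, 43.0 and 25.6 CPM in WT at 29 °C, and 59.8, 95.0, 44.4 and 109 CPM in KO and 84.5, 76.1, 73.4 and 81.8 CPM in WT at room temperature. In KO its level at 29 °C fell within the range at room temperature, while in WT every library at 29 °C was below room temperature (log2 fold changes -0.08 ± 0.27 and -1.27 ± 0.25). Abcd3 had 215, 245 and 222 CPM in KO and 129, 137, 126 and 135 CPM in WT at 29 °C, and 634, 461, 574 and 434 CPM in KO and 509, 645, 547 and 555 CPM in WT at room temperature. Warm-housed libraries of both genotypes lay below those at room temperature, and the KO libraries at 29 °C lay above WT (0.79 ± 0.12, adjusted p = 8.8e-05). The rise of Abcd2 measured 1.16 ± 0.27 (adjusted p = 0.00346), and 1.19 without the libraries with muscle transcripts, where it was not called (adjusted p = 0.0556).

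Among the peroxins, which build peroxisomes, 3 of 4 rose in KO at 29 °C. Pex11a, which acts in peroxisome division, had 73.7, 72.6 and 63.8 CPM in KO and 52.0, 44.1, 43.2 and 42.9 CPM in WT at 29 °C, and 78.4, 80.5, 76.4 and 83.4 CPM in KO and 89.0, 85.7, 85.7 and 84.7 CPM in WT at room temperature. It was above WT in every KO library at 29 °C (log2 fold change 0.62 ± 0.08, adjusted p = 2.94e-05). Pex5, the receptor that imports matrix enzymes, had 99.96, 112 and 135 CPM in KO and 99.6, 115, 136 and 129.7 CPM in WT at 29 °C, and 161, 172, 149.7 and 138 CPM in KO and 143, 152, 160.2 and 169 CPM in WT at room temperature. Its genotypes overlapped at both temperatures (-0.05 ± 0.12, adjusted p = 0.746 at 29 °C). Pex16 had 43.8, 54.7 and 43.3 CPM in KO and 31.5, 29.1, 26.3 and 31.2 CPM in WT at 29 °C, and 127, 140.3, 89.1 and 96.9 CPM in KO and 108, 97.4, 112 and 118 CPM in WT at room temperature. Pex16 and Pex19, which place proteins in the peroxisomal membrane, rose by 0.68 and 0.63 in KO at 29 °C (adjusted p = 0.00113 and 5.05e-05). Without the libraries with muscle transcripts Pex16 measured 0.49 and was not called (adjusted p = 0.106).

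At room temperature the comparison of KO with WT asked the same of brown fat under mild cold. None of the 38 members passed edgeR's test there, and DESeq2 and limma-voom also called none. Of all genes tested, 0.0530% were higher and 0.186% lower in KO. The median log2 fold change of the members was -0.14 over the 38, -0.16 over the mitochondrial and -0.06 over the peroxisomal ones, with a median of 0.01 over all genes. Values were negative for 32 of the 38, including 18 of 18 mitochondrial members, and for 7227 of 15083 genes tested. Members measured in the same libraries can move together, so these signs are not independent of each other. An unadjusted p under 0.05 was reached by 5 members: Cpt1a (-0.42 ± 0.11), Acsl5 (0.60 ± 0.20), Acads (-0.21 ± 0.08), Decr2 (-0.24 ± 0.10) and Etfa (-0.27 ± 0.13), with adjusted p from 0.165 to 0.444, where 11.1% of all genes tested reached it. In 7 members every KO library was below every WT library, with Etfa the furthest apart, and in 0 members every KO library was above. Of all genes tested, 4.28% lay wholly below and 3.94% wholly above. Without KO replicates 2 and 4, which stood apart in earlier results of these data, the mitochondrial median was -0.08 and the peroxisomal median -0.01.

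The comparison of 29 °C with room temperature asked what warm housing does to the pathway. In KO, 24 of 38 members fell and 2 rose, with a median log2 fold change of -0.45, where 21.7% of all genes fell, 24.3% rose and the median was 0.04. With the level of the muscle markers as a covariate 14 members fell and 1 rose in KO, where 1674 of 15083 genes fell and 2028 rose. Without the covariate 3276 of these genes fell and 3664 rose. In KO the marker sums were 29.6 to 1661 CPM at 29 °C and 2.40 to 4.79 CPM at room temperature. Covariate and housing therefore cannot be fully told apart. Not called with the covariate were Acsl4, Acadm, Hadh, Acaa2, Decr1, Etfdh, Acaa1a, Ehhadh, Decr2, Crot and Pex5 (adjusted p from 0.0857 to 0.519). In WT, 34 fell and 1 rose, with a median of -1.25, where 32.8% of all genes fell, 35.9% rose and the median was 0.06. The largest falls in KO were in Acsl5 (-3.38), Acsl3 (-1.29) and Pex16 (-1.26), and in WT in Acsl5 (-3.51), Hadha (-2.27) and Abcd3 (-2.10). The rises were Cpt1a and Acaa2 in KO and Cpt1a in WT. The median member kept 73.4% of its room temperature level in KO and 42.0% in WT. Less than 50% was kept by 5 members in KO and 25 in WT, a limit not counted over all genes. Called falls of more than 1.5-fold numbered 15 members in KO and 31 in WT, against 1615 and 3399 of 15083 genes tested. Not called in WT were Etfb (0.18), Acsl4 (-0.28) and Ehhadh (-0.92). Every library at 29 °C lay below every room temperature library in 24 members in KO and 34 in WT, and above in 2 members in KO and 1 in WT. Of all genes tested, 23.4% in KO and 30.5% in WT lay wholly below in this way, and 24.7% in KO and 32.2% in WT wholly above. These comparisons share libraries with those between genotypes, so their values are not independent of each other.

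**Figure D3:**
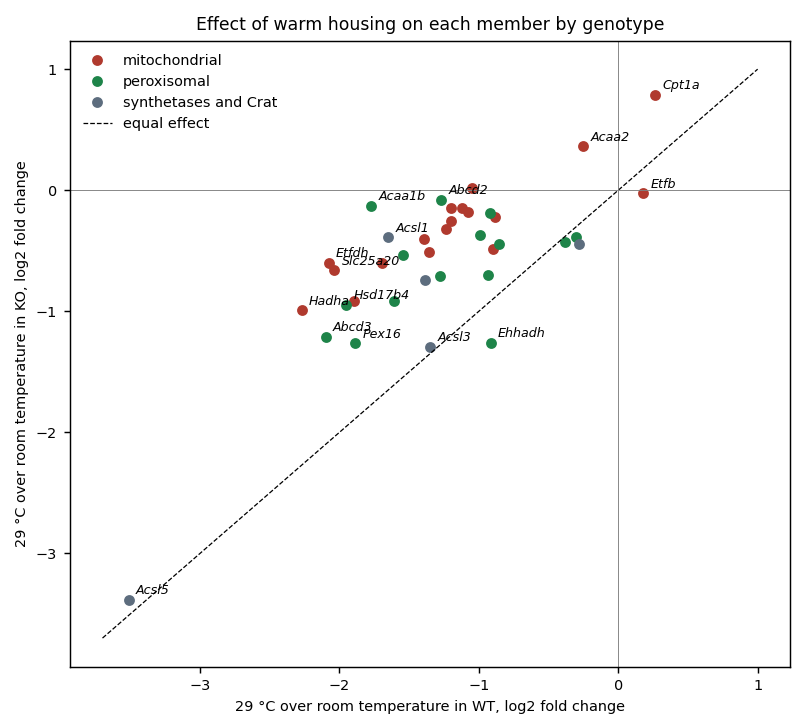
Log2 fold change of 29 °C over room temperature for each of the 38 members in KO (y axis) against WT (x axis), coloured by compartment, with a dashed line of equal effect. Of the 38 points, 33 lie above the line, where the KO value is the higher, and Acsl3, Acsl5 and Etfb are among those near it. Over all genes tested the KO value was the higher in 7639 of 15083.

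The interaction tested whether the KO effect differed between the temperatures, as the KO over WT difference at 29 °C minus that at room temperature. It was positive and past the threshold in 29 of 38 members and negative and past it in 0, where 16.0% of all genes were called positive and 12.3% negative. Of the members called negative, edgeR, DESeq2 and limma-voom each gave 0. The largest interactions were Acaa1b (1.64 ± 0.52, adjusted p = 0.0328), Etfdh (1.48 ± 0.20, adjusted p = 8.18e-05) and Slc25a20 (1.38 ± 0.16, adjusted p = 3.44e-05). The Acaa1b call was lost without KO at 29 °C replicate 1 (adjusted p = 0.0789). Without the libraries with muscle transcripts, which leaves 1 KO library at 29 °C, fewer members and fewer of all genes tested were called. Among those not called there, Acsl1 measured 0.88, Cpt1b 0.48, Acox3 0.35, Scp2 0.52, Crat 0.47 and Pex16 0.44. Cpt1a and Abcd2, also not called there, measured 0.64 and 1.23, above their values in the full fit. In the full fit all 4 shuttle members were called, as were 10 of 11 mitochondrial beta-oxidation enzymes and 6 of 8 peroxisomal ones. Not called were Acsl3, Acsl4, Acsl5, Decr1, Etfb, Acaa1a, Ehhadh, Crot and Pex5.

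Mitochondrial and peroxisomal members mostly moved in the same directions, and of the comparisons below their medians lay furthest apart in the interaction. In KO at 29 °C against WT, 16 of 18 mitochondrial members rose and 1 fell (median 0.78), and 12 of 15 peroxisomal members rose and 0 fell (median 0.62). With warm housing in KO, 8 mitochondrial members fell and 2 rose (median -0.29), and 12 peroxisomal members fell and 0 rose (median -0.53). The same housing change in WT lowered 16 mitochondrial members and raised 1 (median -1.20), and lowered 14 peroxisomal members and raised 0 (median -1.27). The median share of the room temperature level kept was 81.9% for mitochondrial and 69.0% for peroxisomal members in KO, and 43.6% and 41.5% in WT. None of the 18 mitochondrial members and 3 of the 15 peroxisomal ones, Abcd3, Ehhadh and Pex16, fell below 50% in KO. Interaction medians were 0.96 for mitochondrial and 0.63 for peroxisomal members. Without the 4 peroxins and Acaa1b, the median of the 10 remaining peroxisomal members was 0.49 in KO against WT at 29 °C. For these 10 it was -0.62 with warm housing in KO, -1.13 with warm housing in WT and 0.60 in the interaction. These are descriptions of the lists, and the difference between them was not tested.

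Summed over the compartment, mitochondrial members reached 14723 to 19815 CPM in KO at 29 °C and 10646 to 11854 CPM in WT at 29 °C. At room temperature the sums were 20070 to 23686 CPM in KO and 23423 to 25802 CPM in WT. Peroxisomal members summed to 1799 to 2155 CPM in KO and 1328 to 1594 CPM in WT at 29 °C, and to 2977 to 3881 CPM in KO and 3386 to 3814 CPM in WT at room temperature. For both compartments the KO libraries at 29 °C lay above all WT libraries at 29 °C and below all libraries at room temperature. The ratio of the mitochondrial to the peroxisomal sum was 8.18 to 9.19 in KO and 7.44 to 8.23 in WT at 29 °C, and 6.10 to 6.84 in KO and 6.64 to 6.92 in WT at room temperature, so that all warm libraries had a higher ratio than all others. These sums weigh abundant genes most.

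**Figure D4:**
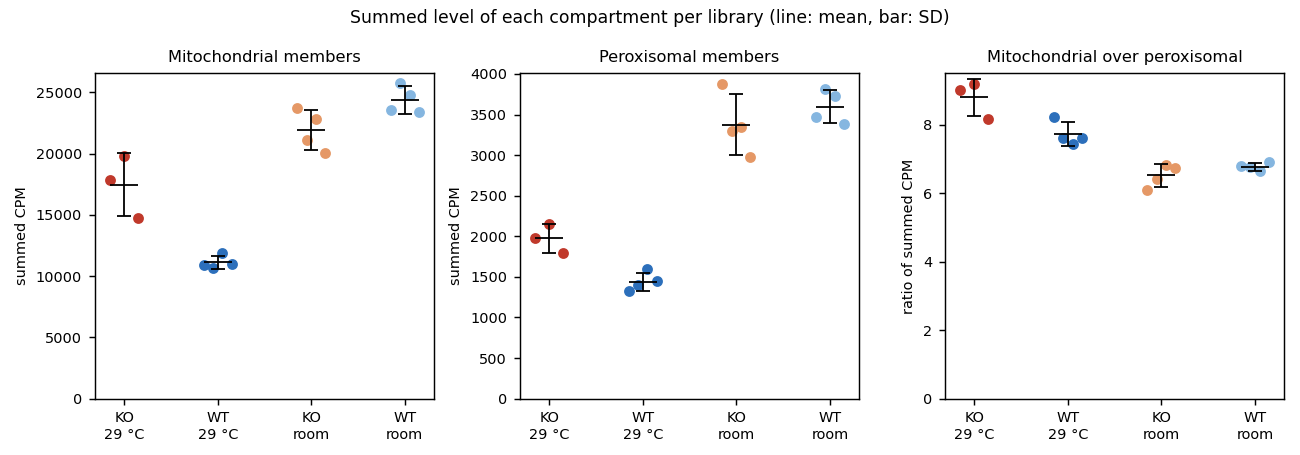
Summed CPM of the 18 mitochondrial members, of the 15 peroxisomal members and their ratio (y axes from 0) in every library of the 4 groups; lines are means and bars SD. KO at 29 °C lies between WT at 29 °C and the room temperature groups in both sums, and the ratio is highest at 29 °C.

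Levels between members were compared as CPM per kilobase of merged exons, a length over all annotated isoforms that lowers the value of genes with long untranslated ends. Acaa2 led at 1412 in KO at 29 °C, 1099 in KO at room temperature and 1271 in WT at room temperature. In WT at 29 °C Etfb came first at 1203.5, ahead of Acaa2 at 1068, and the libraries of these genes overlapped. The dehydrogenases Acadl and Acadvl and the flavoprotein subunit Etfa held ranks 3 to 5 in every group. Cpt1a was last of 38 in each group, at 2.44 and 2.27 in KO and WT at 29 °C and 1.41 and 1.89 in KO and WT at room temperature. Neighbours in the order often could not be told apart: of 37 neighbouring pairs, 28 overlapped between libraries in KO at 29 °C, 27 in WT at 29 °C, 29 in KO at room temperature and 21 in WT at room temperature.

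**Figure D5:**
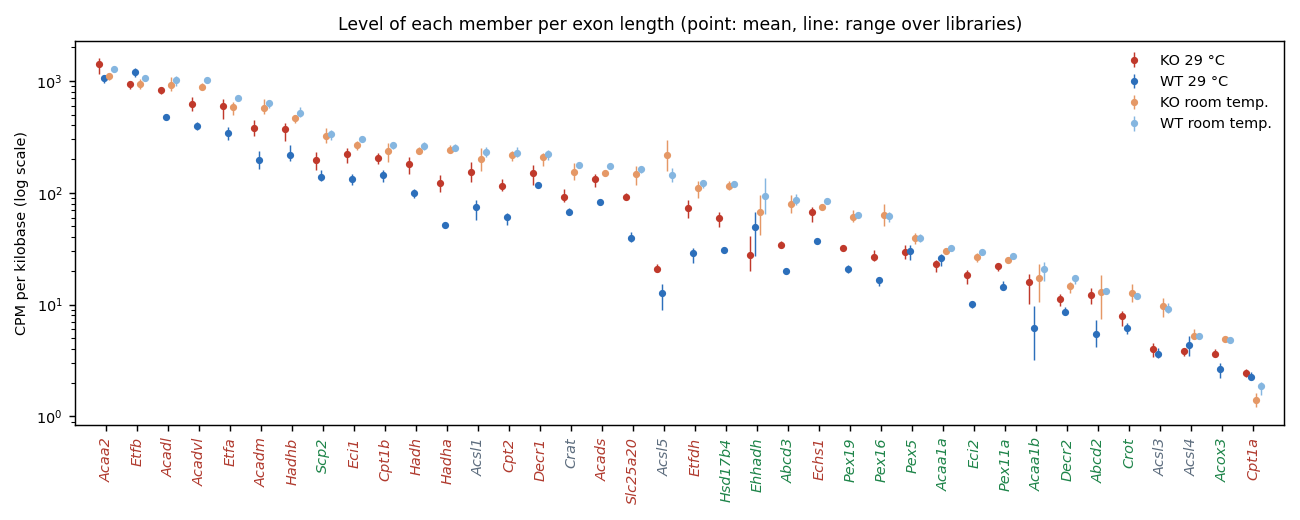
CPM per kilobase of exon (y axis, log scale) of the 38 members in the 4 groups; points are means, lines the range over libraries, and gene names are coloured by compartment. Members are ordered by their level in WT at room temperature, and levels run from 1412 for Acaa2 to 2.44 for Cpt1a in KO at 29 °C, and red (KO at 29 °C) lies above blue (WT at 29 °C) for most members.

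The spread within groups was not even. The median coefficient of variation over members was 15.1% in KO at 29 °C, 9.49% in WT at 29 °C, 11.2% in KO at room temperature and 6.57% in WT at room temperature. In KO at 29 °C, replicate 3 was the lowest library in 29 of 38 members and replicate 2 the highest in 30. In KO at room temperature, replicate 4 was the lowest in 22 and replicate 1 the highest in 25. Both KO libraries at 29 °C with the extreme member levels also held muscle transcripts, at 542 CPM in replicate 2 and 1661 CPM in replicate 3, and their part in these levels was not tested.

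Other genes of the pathway were taken from lists that hold none of the members but were chosen with earlier results known. Of 30 further peroxisomal genes tested, 18 rose and 0 fell in KO against WT at 29 °C, including catalase, Cat, which clears the peroxide made by peroxisomal oxidases (1.07 ± 0.09), and Pex7, an import receptor (1.05 ± 0.10). Among 21 further mitochondrial genes 10 rose and 0 fell, where 24.7% of all genes tested rose and 20.0% fell in the same comparison. The median log2 fold change of these 21 genes was 0.30, with 6 negative values, against 0.04 over all genes. The largest rise among them was that of Acot2 (1.88 ± 0.15), a thioesterase whose reads may be shared with its near copy Acot1. Mlycd, which breaks down the Cpt1 inhibitor malonyl-CoA, rose by 0.80 ± 0.12. Acaca and Acacb, the carboxylases that make malonyl-CoA, averaged 479 ± 80.7 and 445 ± 139 CPM in KO and 458 ± 289.7 and 394 ± 163 CPM in WT at 29 °C, and were not called between genotypes. With warm housing Acaca fell in both genotypes, with log2 fold changes of -2.99 ± 0.45 in KO and -2.88 ± 0.40 in WT.

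Regulators of the pathway rose in 10 of 22 and fell in 1 in KO at 29 °C, where 24.7% of all genes tested rose and 20.0% fell. The nuclear receptor Esrrg averaged 26.8 ± 9.19 CPM in KO and 4.80 ± 1.91 CPM in WT at 29 °C (2.48 ± 0.25, adjusted p = 4.19e-06). The coactivator Ppargc1a averaged 41.3 ± 21.4 CPM in KO and 10.7 ± 3.49 CPM in WT (1.95 ± 0.43, adjusted p = 0.00277). Ppara, the fatty acid-sensing receptor of oxidation genes, averaged 418 ± 47.8 CPM in KO and 256 ± 31.6 CPM in WT at 29 °C, and 229.8 ± 98.7 CPM in KO and 423 ± 64.8 CPM in WT at room temperature. It was higher in KO at 29 °C (0.71 ± 0.26, adjusted p = 0.0386) and its interaction was 1.59 ± 0.35 (adjusted p = 0.0048). The fall was in Klf11 (-0.67 ± 0.18). At room temperature none of these 3 lists had a member called between genotypes by edgeR, with 3 peroxisomal, 3 mitochondrial and 5 regulator genes at an unadjusted p under 0.05, against 11.1% of all genes tested.

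Markers of cell types moved with the same comparisons. In KO against WT at 29 °C 24.7% of all genes tested rose and 20.0% fell, and with warm housing in WT 35.9% rose and 32.8% fell. Of 8 brown adipocyte markers, 7 rose and 0 fell in KO against WT at 29 °C, and 8 fell with warm housing in WT. Their summed level was 8821 to 11520 CPM in KO and 2425 to 3457 CPM in WT at 29 °C. Of 6 markers of adipocytes in general, 4 rose and 1 fell in KO at 29 °C. Of 4 white adipocyte markers tested, 1 rose and 0 fell. All 10 endothelial markers were lower in KO at 29 °C, at sums of 696 to 925 CPM in KO and 1576 to 2174 CPM in WT, and all 10 were higher at 29 °C than at room temperature in WT. Of 8 lymphocyte markers 7 were higher in KO at 29 °C, at sums of 20.0 to 26.1 CPM in KO and 5.01 to 7.22 CPM in WT. Macrophage markers, 3 of 8 higher and 1 lower, summed to 336 to 487 CPM in KO and 196 to 306 CPM in WT. The part of these shifts in the levels of the members was not tested.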

How the data were processed

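Bulk RNA of 15 brown fat libraries was read as 150 bp paired ends on a BGIseq500 sequencer, per the labels' protocols. Per the submitters' processing notes, the authors aligned reads to mm10 with STAR 2.7.10a and quantified genes with RSEM 1.2.28. The deposited table holds these expected counts from the authors, of which 7.26% have decimals; the sources used here do not give the strand setting. Values were rounded to whole counts and scaled by TMM. Genes passing filterByExpr (minimum count 10) were fitted in 1 model of the 4 groups by edgeR 4.0.16 (robust quasi-likelihood, 11 residual degrees of freedom; R 4.3.3), with Benjamini-Hochberg adjustment over all 15083 genes tested within each comparison. Folds are log2 ± SE. Depth was 23977448 to 38800967 counts per library. Exon lengths came from GENCODE on GRCm38, promoters from RefSeq (GRCm38.p6). Values in every library are given for a listed set of members and for the called members with the 3 largest rises and falls. The members, lists and alternatives were chosen with earlier results of these data known. The fit was also run on counts simulated from its own estimated spread, which cannot test uneven spread between groups. Alternatives were RLE scaling, mitochondrially encoded genes left out, other filters, DESeq2 1.42.0, limma-voom (limma 3.58.1), fits restricted to the groups compared, a block of replicate numbers, stricter thresholds, libraries left out and a muscle covariate. Same-numbered libraries did not deviate together (correlations from -0.276 to 0.33, over 0.1 in 4 of 21 pairs), so numbers were not taken as pairs. No library duplicated another of its group.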

Additional observations from a re-analysis of the deposited data

Results flagged for a closer look

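The effect of the deletion differed between 29 °C and room temperature in 29 members by edgeR's interaction test, always with the more positive KO value at 29 °C. Interaction log2 fold changes were 1.27 for Acsl1, 0.52 for Cpt1a, 0.66 for Cpt1b, 0.99 for Cpt2 and 1.38 for Slc25a20. Among the mitochondrial enzymes they were 0.84 for Acadvl, 0.97 for Acadl, 1.10 for Acadm, 0.90 for Acads, 1.28 for Hadha, 0.91 for Hadhb, 0.99 for Hadh, 1.05 for Echs1, 0.61 for Acaa2, 0.95 for Eci1, 1.07 for Etfa and 1.48 for Etfdh. Peroxisomal enzymes and Crat gave 1.64 for Acaa1b, 0.41 for Acox3, 1.01 for Hsd17b4, 1.01 for Eci2, 0.63 for Decr2, 0.57 for Scp2 and 0.65 for Crat. Transporters and peroxins gave 1.19 for Abcd2, 0.89 for Abcd3, 0.73 for Pex11a, 0.62 for Pex16 and 0.69 for Pex19.

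In 5 of 114 groups of 4 libraries 1 library stood far from the other 3 by Dixon's criterion (critical value 0.829), a count near the 1 in 20 that chance gives. These were Acsl4 in KO at room temperature replicate 4 (32.5 CPM), Cpt1a and Acadvl in WT at room temperature replicate 1 (11.8 and 2597 CPM), Hadha in WT at room temperature replicate 2 (2363 CPM) and Pex11a in WT at 29 °C replicate 1 (52.0 CPM).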

How the results depend on the processing

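No called member and no compartment median changed sign under any alternative. Of the members called, 27 of 32 kept the call with any 1 library left out in KO against WT at 29 °C, 20 of 26 for housing in KO, 33 of 35 for housing in WT, and 23 of 29 for the interaction. In KO against WT at 29 °C, 0 members fell by more than 1.5-fold, where 1996 of 15083 genes tested did. The peroxisomal median in this comparison was 0.49 without the 3 libraries with muscle transcripts. With warm housing in KO, 15 members fell by more than 1.5-fold, where 1615 of 15083 genes tested did. With a muscle covariate, and no limit on the fold, 14 fell, while falls over all genes tested went from 3276 to 1674. The peroxisomal median was -0.69 without the libraries with muscle transcripts and -0.63 without KO at room temperature replicates 2 and 4. The count of 2 rises became 1 without a filter, at an adjusted p under 0.01, above 1.5-fold, without the libraries with muscle transcripts, without those 2 KO libraries and with a muscle covariate. The rise of Cpt1a with warm housing in WT was lost, leaving 0, under RLE scaling, no filter, only the libraries compared, the replicate block, DESeq2, the stricter p, the 1.5-fold limit, and without either set of libraries. The count was 2 without mitochondrially encoded genes, where Etfb was added, and with a stricter filter. With the muscle covariate Cpt1a lost its call in WT (adjusted p = 0.101) and Etfb gained one (adjusted p = 0.0462). The replicate block, for numbers that pair nothing in the labels, left Decr1 at an adjusted p of 0.0914 and Crot at 0.0869 in KO against WT at 29 °C. With 1 library left out, members higher in KO at 29 °C numbered 27 to 31 and lower 1; falls with housing were 22 to 26 in KO and 33 to 35 in WT, rises 1 to 2 in KO and 0 to 1 in WT, and interactions 24 to 29. The housing median was -0.39 to -0.20 over mitochondrial and -0.62 to -0.49 over peroxisomal members in KO, and -1.22 to -1.17 and -1.35 to -1.15 in WT. The causes were not tested. With 3 or 4 libraries a group, small changes are at the limit of these data, as with warm housing for Cpt1a in WT or Decr2 in KO.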
